A study of Homo sapiens with 16 samples.

Results

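The genes described are 33 p53 target genes, listed by symbol and looked up among the 58051 Ensembl gene identifiers of the deposited table. Each symbol matched 1 identifier. This list and the other gene lists below were chosen with earlier results of these data known, so their counts are not an independent test. Of the 33, 32 passed a filter on low values (a mean normalised count of at least 10 over the 16 libraries) and were tested. SPATA18, a gene of mitochondrial quality control, did not pass: no library held more than 1 read of it, so a change was not detectable at this depth.

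RNA was sequenced from P493-6, an immortalised human B cell line that carries a MYC transgene repressed by doxycycline and an EBNA2 protein that needs estrogen. All 4 groups were this single line in DMEM with serum, and each held 4 libraries. High MYC cells received no additive, and medium MYC cells were given 0.1 µg/mL doxycycline together with 1 µM β-estradiol 24 h ahead of the treatment. The high MYC inhibitor and medium MYC inhibitor groups were then exposed to 100 nM IMP1088, which blocks the N-myristoyltransferases (NMTs), and the 2 control groups to DMSO; the sample titles give a time of 24 h for all groups. MYC level changed together with doxycycline and estradiol, so what each contributes cannot be told apart. The labels do not say whether replicates were separate cultures, so p-values measure the spread between these libraries only.

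The protein p53 is a transcription factor that is kept low by its own targets and accumulates under DNA damage, ribosome stress and other insults. It then raises genes that stop the cell cycle, repair DNA, promote or restrain cell death and adjust metabolism, together with feedback genes that lower p53 again. p53 also lowers many cell cycle genes indirectly, through the kinase inhibitor p21. Many of the targets answer to other factors as well, so their mRNA is not a measure of p53 activity alone.

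Library depth ran from 8755296 to 13858534 reads, and MYC mRNA, which defines the groups, stood at 31649 ± 2130 (SD, n = 4) normalised counts in the high MYC control group and fell to 958.6 ± 48.7 (SD, n = 4) in the medium MYC control group. The high MYC inhibitor group had 47542 ± 505 (SD, n = 4) and the medium MYC inhibitor group 1382 ± 51.2 (SD, n = 4), each above the control mean of its level, and the part of this shift in the results below was not tested. All 5 B cell markers looked at (MS4A1, CD79A, CD79B, PAX5, CD22) were present in every group. Their summed normalised count was 23284 to 23454 in high MYC controls and 18874 to 19840.1 with the inhibitor, and 37963 to 38720.2 in medium MYC controls and 33532 to 34737 with the inhibitor. The 5 T cell markers summed to 87.2 to 106 in high MYC controls and 55.1 to 77.6 with the inhibitor, and to 183 to 240.4 and 154 to 188 at medium MYC. The 5 monocyte markers summed to 41.4 to 65.9 and 50.5 to 64.4 at high MYC, and to 51.7 to 62.6 and 79.7 to 83.6 at medium MYC. CD3D, CD8A, FCGR3A and MPO had 3 reads or fewer in each of the 16 libraries. Of the 5 B cell markers, 4 fell with the inhibitor at high MYC and 3 at medium MYC, at a limma adjusted p under 0.05. Over all tested genes 16.3% fell at high MYC and 14.6% at medium MYC. Of the 3 tested T cell markers 2 fell at each level (median log2 change -0.73 at high and -0.71 at medium MYC), and the 1 tested monocyte marker, LYZ, rose at medium MYC (log2 change 0.45, and 0.04 at high MYC). The part of these marker levels in the changes below was not tested. In bulk RNA, fewer cells expressing a gene and less RNA per cell cannot be told apart.

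A direct p53 site is a run of 20 bases made of a repeated half-site, known as the p53 consensus. RefSeq promoter windows on GRCh38.p14, from 250 bases before to 50 after the annotated start, were found for 25 of the 33 genes. The p53 consensus without a spacer, with its 4 core letters intact and at most 3 mismatches elsewhere, was present in 3 of these 25 windows (12%), against 288 of all 27305 windows (1.05%). The consensus reads the same on both strands, so a single scan covers both. The 3 stretches are shown because they are the only ones of the 25 windows with such a match, and the capitals mark the match. They lie at chr15:88621266-88621339 (plus strand) for AEN, chr17:74872995-74873055 (minus strand) for FDXR and chr15:63157487-63157586 (minus strand) for RPS27L, all upstream of the start, and each is written 5′ to 3′ on the strand of its gene.
AEN: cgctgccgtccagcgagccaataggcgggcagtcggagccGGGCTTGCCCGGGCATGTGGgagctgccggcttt
FDXR: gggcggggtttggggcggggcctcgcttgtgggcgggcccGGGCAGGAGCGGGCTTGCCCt
RPS27L: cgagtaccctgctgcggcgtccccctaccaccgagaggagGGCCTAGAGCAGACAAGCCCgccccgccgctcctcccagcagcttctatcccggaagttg
The AEN match had 2 mismatches and ended 15 bases before the start, and the FDXR and RPS27L matches had 3 each and ended 2 and 50 bases before it. The MYC E-box CACGTG, which is also the same on both strands, was found in 2 of the 25 windows (8%), those of AEN and EDA2R, against 7.43% of all windows. It did not overlap the p53 match in AEN. These are matches of letters, not measured binding, and a window without a match says nothing about sites elsewhere in a gene, which are known for several of these targets.

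As a first view, the median over the 32 tested genes of the log2 difference from the high MYC control mean was computed in each library, on log2 of the normalised count plus 1. It lay between -0.03 and 0.01 in the 4 high MYC controls and between 0.14 and 0.17 in the 4 high MYC inhibitor libraries. In medium MYC controls it was 0.19 to 0.25, and with the inhibitor it was 0.51 to 0.53. The 4 groups did not overlap on this measure, and the inhibitor libraries were above the controls at both MYC levels. Within each group, the correlation of each library with the mean of the other 3 was 0.990 to 0.994 across tested genes, which are not independent replicates. This value reflects mostly the spread between genes, so it does not show how closely replicates agree. Replicates differed beyond counting noise (chi-square per degree of freedom 1.72 to 10.7). High MYC control replicate 1 was the lowest of its group for 15 of the 32 genes; without it the count called at high MYC was 16 in place of 18.

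**Figure D1:**
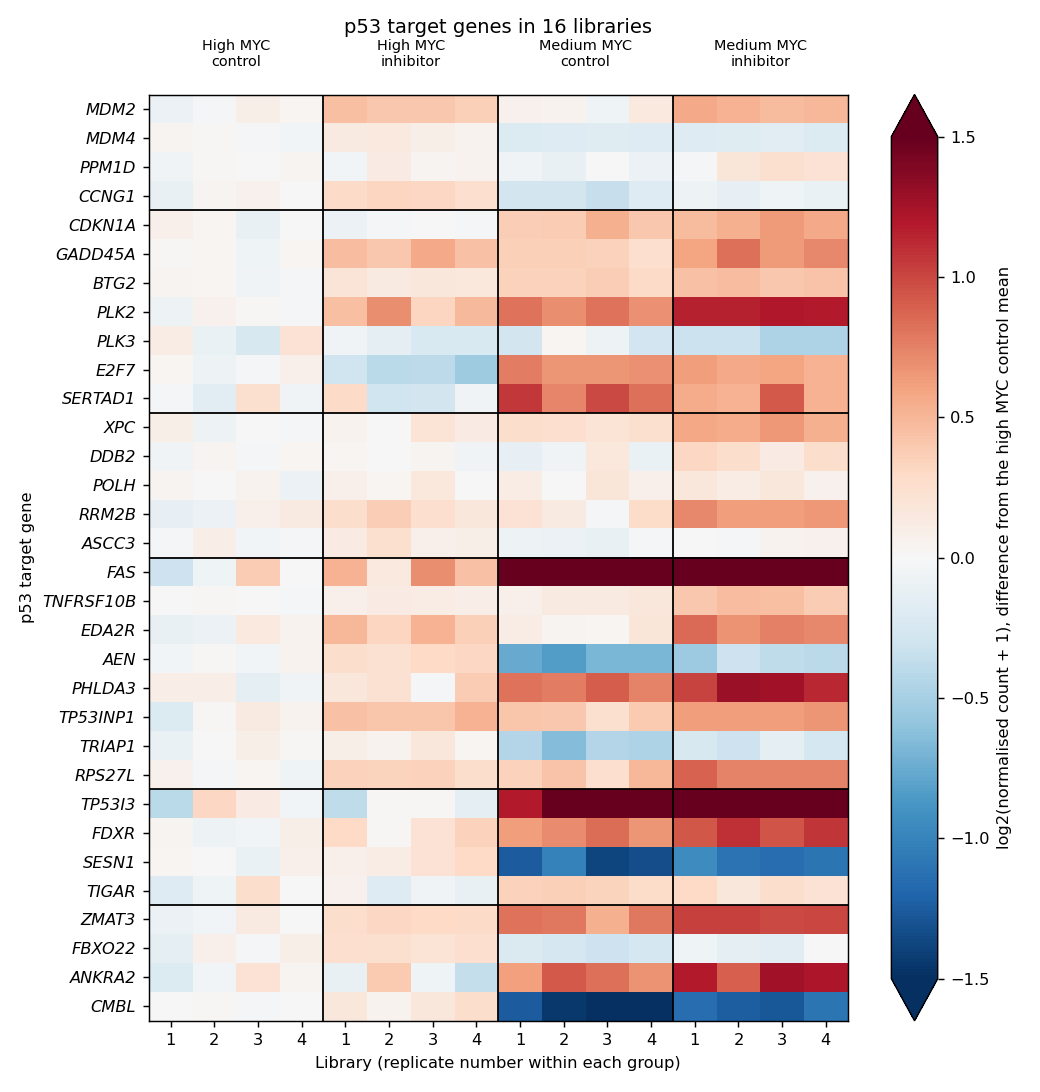
Colour gives log2(normalised count + 1) of each of the 32 tested p53 target genes (rows, grouped by role) in each of the 16 libraries (columns, 4 per group), as the difference from the high MYC control mean, with colours saturating at 1.5 in either direction. Most rows are warmer with the inhibitor at both MYC levels, FAS and TP53I3 are high and SESN1 and CMBL low in medium MYC libraries, and E2F7 is the only row called lower with the inhibitor at high MYC, where 7 of the 32 changes are negative.

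The first question was what NMT inhibition did to these genes at each MYC level. At high MYC, 17 of 32 tested p53 target genes rose with the inhibitor and 1, E2F7, fell, at a limma adjusted p under 0.05 over all 13765 tested genes. Over all tested genes 10.5% were called higher and 16.3% lower (1442 and 2247 genes, or 1727 and 1770 under quantile normalization). At medium MYC 22 of 32 rose and none fell, against 11.7% called higher and 14.6% lower over all genes; at an unadjusted limma p under 0.05, 2 were lower, and edgeR and DESeq2 also called none lower. The changes were small: no p53 target gene changed 2-fold with the inhibitor at either level, and the median log2 change was 0.16 at high MYC and 0.27 at medium MYC, where the medians over all genes were -0.02 and -0.01. The share of all tested genes that changed 2-fold was not computed. The 4 inhibitor and 4 control libraries did not overlap for 17 of 32 genes at high MYC and 20 of 32 at medium MYC, against 26.7% and 27.9% of all tested genes in either direction.

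The genes that rose at both levels were MDM2, CCNG1, GADD45A, BTG2, PLK2, RRM2B, FAS, TNFRSF10B, EDA2R, AEN, TP53INP1, RPS27L, FDXR, ZMAT3 and FBXO22. How many of all tested genes rose at both levels was not computed. MDM4 and ASCC3 passed the test at high MYC alone. PPM1D, CDKN1A, XPC, DDB2, PHLDA3, TRIAP1 and CMBL passed at medium MYC alone, which is not by itself a difference between the levels. PLK3, SERTAD1, POLH, TP53I3, SESN1, TIGAR and ANKRA2 passed at neither.

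**Figure D2:**
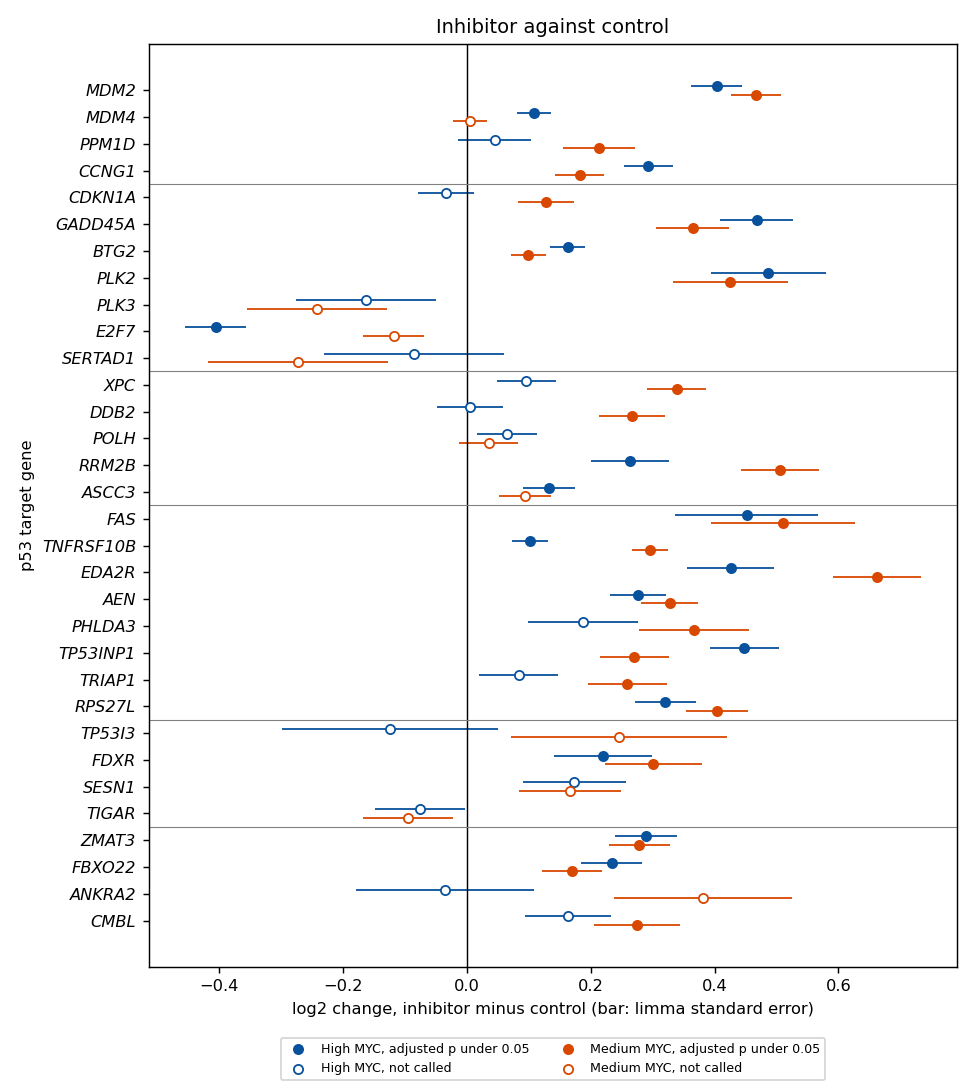
Points give the log2 change with the inhibitor for each of the 32 tested p53 target genes at high MYC (blue) and medium MYC (orange), with bars of 1 limma standard error; filled points have an adjusted p under 0.05. The values run from -0.41 to 0.49 at high MYC and from -0.27 to 0.66 at medium MYC. All 8 death and survival genes are filled at medium MYC, where 11.7% of all tested genes were called higher.

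Of the 4 feedback genes, 3 rose at each MYC level, against 10.5% (high MYC) and 11.7% (medium MYC) of all tested genes. MDM2 (ENSG00000135679, chromosome 12, 68808176 to 68850686) encodes the ubiquitin ligase that targets p53 for degradation and is the best known feedback target. At high MYC its normalised counts were 3187, 3308, 3594 and 3440.1 in controls and 4617, 4463, 4485 and 4315 with the inhibitor. At medium MYC they were 3528, 3508, 3221 and 3726 in controls and 5019, 4856, 4677 and 4758 with the inhibitor. Inhibitor and control libraries did not overlap at either level, and the inhibitor libraries were the high ones. The log2 change was 0.40 (limma, SE 0.04 and adjusted p = 1.61e-07) at high MYC and 0.47 (limma, SE 0.04 and adjusted p = 1.50e-08) at medium MYC, or 1.32-fold and 1.38-fold on the scale of the normalised count plus 1. CCNG1, which encodes cyclin G1, a partner of the phosphatase PP2A that acts on MDM2, had 1127, 1253, 1267 and 1212 in controls and 1483, 1513, 1509 and 1443 with the inhibitor at high MYC. The medium MYC values of CCNG1 were 1000.3, 1002, 955 and 1064 in controls and 1151, 1111, 1161 and 1135 with the inhibitor. CCNG1 rose at both levels: its log2 changes were 0.29 (limma adjusted p = 8.30e-06) and 0.18 (limma adjusted p = 0.00137), again without overlap.

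MDM4, the MDM2 relative that holds p53 inactive, had normalised counts of 2740.0, 2692, 2614 and 2583 in high MYC controls and 2914, 2938, 2834 and 2766 with the inhibitor, without overlap. Its rise there was small, with a log2 change of 0.11 (limma adjusted p = 0.00565). At medium MYC its log2 change was 0.01 (limma adjusted p = 0.921). PPM1D, which encodes a phosphatase (WIP1) that shuts down p53 and its kinases, stood at 308, 323, 322 and 329.7 in controls and 312, 349, 331 and 333 with the inhibitor at high MYC. PPM1D at medium MYC stood at 309.8, 298, 321 and 302 in controls and 317, 364, 378 and 372 with the inhibitor. Its log2 change there was 0.21 (limma adjusted p = 0.00899), a rise, although libraries of the groups overlapped. Its log2 change at high MYC was 0.04 (limma adjusted p = 0.63).

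The 7 genes listed under arrest split. GADD45A, BTG2 and PLK2 rose at both levels, CDKN1A rose at medium MYC, E2F7 fell at high MYC, and PLK3 and SERTAD1 passed no test of the inhibitor. Over all tested genes 10.5% rose and 16.3% fell at high MYC, and 11.7% rose and 14.6% fell at medium MYC. A fall of 1 of the 7 genes at high MYC is thus near the share of all genes. CDKN1A (ENSG00000124762, chromosome 6, 36676460 to 36687339) encodes p21, the inhibitor of cyclin-dependent kinases and the classical arrest effector. At high MYC its normalised counts were 1077, 1047, 947 and 1020.4 in controls and 961, 1002, 1028 and 1001 with the inhibitor. At medium MYC they were 1323, 1328, 1482 and 1357 in controls and 1414, 1476, 1594 and 1511 with the inhibitor. The libraries overlapped at both levels. The log2 change was -0.03 (limma, SE 0.05 and adjusted p = 0.637) at high MYC, and the rise at medium MYC was 0.13 (limma, SE 0.05 and adjusted p = 0.0441). That call was lost without any 1 of 6 of the 8 libraries (medium MYC control replicates 1, 2 and 4 or medium MYC inhibitor replicates 2, 3 and 4; limma adjusted p = 0.0619 to 0.153), and with no filter (limma adjusted p = 0.0863) or no mean trend (limma adjusted p = 0.0875).

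GADD45A (ENSG00000116717, chromosome 1, 67685061 to 67688338), a growth arrest gene whose product binds cyclin-dependent kinase complexes and repair factors, had normalised counts of 224, 225, 211 and 225 in high MYC controls and 305, 292, 327 and 300.4 with the inhibitor. In medium MYC controls the counts were 284, 283, 281 and 264, and with the inhibitor they were 334, 392, 344 and 364. All inhibitor libraries were above all controls of their level. The log2 changes were 0.47 (limma, SE 0.06 and adjusted p = 3.65e-06) and 0.36 (limma, SE 0.06 and adjusted p = 7.09e-05). PLK2, which encodes a stress-responsive polo-like kinase, had 58.7, 65.1, 62.9 and 61.5 in controls and 85.0, 101, 77.7 and 87.3 with the inhibitor at high MYC. The medium MYC values of PLK2 were 109.5, 101, 109 and 100.1 in controls and 139.8, 139, 144 and 142 with the inhibitor. PLK2 rose at both levels, with log2 changes of 0.49 (limma adjusted p = 4.34e-04) and 0.43 (limma adjusted p = 0.00143) and no overlap. BTG2, an antiproliferative gene whose product joins the CCR4-NOT deadenylase, rose by less, with log2 changes of 0.16 (limma adjusted p = 1.58e-04) and 0.10 (limma adjusted p = 0.0114). The BTG2 call at medium MYC was lost without medium MYC control replicate 4 (limma adjusted p = 0.0512).

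E2F7 (ENSG00000165891, chromosome 12, 77021247 to 77065580) encodes an atypical E2F that represses cell cycle genes. Its normalised counts were 529, 489.6, 509 and 545 in high MYC controls and 422, 390.4, 394 and 359 with the inhibitor, and 882, 820.2, 817 and 830.5 and 798, 766, 778 and 744 at medium MYC. At high MYC every inhibitor library was below every control. E2F7 fell by 0.41 on the log2 scale at high MYC (SE 0.05, limma adjusted p = 2.13e-06), and its log2 change at medium MYC was -0.12 (limma, SE 0.05 and adjusted p = 0.0846). At medium MYC it was called lower when only the groups compared entered the fit (limma adjusted p = 0.0493) and after the GC correction (limma adjusted p = 0.019). PLK3, another stress-responsive polo-like kinase gene, had log2 changes of -0.16 (limma adjusted p = 0.317) and -0.24 (limma adjusted p = 0.127). SERTAD1, whose product binds CDK4 and E2F complexes, had 45.9, 41.6, 55.2 and 44.7 in controls and 57.0, 37.7, 38.4 and 44.7 with the inhibitor at high MYC. The medium MYC values of SERTAD1 were 98.0, 77.9, 93.6 and 83.7 in controls and 68.7, 67.5, 88.8 and 67.6 with the inhibitor. The groups overlapped at both levels, and the log2 changes were -0.09 (limma adjusted p = 0.717) and -0.27 (limma adjusted p = 0.185).

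Among the 5 DNA repair genes, RRM2B and ASCC3 rose at high MYC and RRM2B, XPC and DDB2 at medium MYC. Over all tested genes 10.5% rose at high and 11.7% at medium MYC. RRM2B (ENSG00000048392, chromosome 8, 102204502 to 102239118) encodes the p53-inducible small subunit of ribonucleotide reductase, which supplies deoxynucleotides for repair. Its normalised counts were 556, 572, 640.1 and 668 in high MYC controls and 728, 785, 722 and 684 with the inhibitor. In medium MYC controls they were 705, 667, 597 and 733, and with the inhibitor 1003, 935, 936 and 955. Neither level showed overlap, and the medium MYC inhibitor libraries were the highest of the 16. The log2 changes were 0.26 (limma, SE 0.06 and adjusted p = 0.00345) and 0.51 (limma, SE 0.06 and adjusted p = 2.75e-06).

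XPC (ENSG00000154767, chromosome 3, 14145147 to 14178783) and DDB2 (ENSG00000134574, chromosome 11, 47214465 to 47239240) encode the proteins that recognise DNA damage at the start of global nucleotide excision repair. XPC stood at 493, 439, 468 and 459 in high MYC controls and 482, 468, 534 and 504 with the inhibitor, with overlap. At medium MYC it stood at 559, 551, 534 and 548 in controls and 693, 683, 727 and 672 with the inhibitor, without overlap. Exons of other genes overlap 39.0% of the XPC exon length. Its log2 change was 0.10 (limma, SE 0.05 and adjusted p = 0.147) at high MYC and 0.34 (limma, SE 0.05 and adjusted p = 1.25e-05) at medium MYC. At high MYC XPC was called higher under quantile normalization (limma adjusted p = 0.041) and the GC correction without a replicate block (limma adjusted p = 0.0462), but not with the block. DDB2 had 627, 669, 646 and 664 in high MYC controls and 667, 653, 668 and 627 with the inhibitor, and 599.8, 629, 725 and 609 and 809, 779.8, 711 and 780.4 at medium MYC. Medium MYC control replicate 3 was within the range of the inhibitor libraries, and the other 3 controls were below them. The DDB2 log2 changes were 0.00 (limma, SE 0.05 and adjusted p = 0.964) and 0.27 (limma, SE 0.05 and adjusted p = 6.58e-04).

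ASCC3, a helicase of alkylation repair, stood at 939, 1026, 932 and 944 in controls and 1042, 1135, 1016 and 1021 with the inhibitor at high MYC. ASCC3 at medium MYC stood at 914, 906, 888 and 947 in controls and 966, 938, 993 and 1003 with the inhibitor. The groups overlapped at both levels. ASCC3 rose at high MYC by 0.13 (limma adjusted p = 0.0224) on the log2 scale and had 0.09 (limma adjusted p = 0.11) at medium MYC. The call at high MYC was lost without any 1 of 4 of the 8 libraries (high MYC control replicates 1, 3 and 4 or high MYC inhibitor replicate 2; limma adjusted p = 0.0551 to 0.102), when only the groups compared entered the fit (limma adjusted p = 0.0573) and after the GC correction without a replicate block (limma adjusted p = 0.0908); with the block and the GC correction it passed. At medium MYC ASCC3 was called under equal library totals (limma adjusted p = 0.0465) and quantile normalization (limma adjusted p = 0.0258). POLH, the translesion polymerase eta, had log2 changes of 0.06 (limma adjusted p = 0.351) and 0.04 (limma adjusted p = 0.644).

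Of the death and survival genes 6 of 8 rose at high MYC and all 8 at medium MYC, against 10.5% and 11.7% of all tested genes. At medium MYC no gene's inhibitor libraries overlapped its controls, while 27.9% of all tested genes showed no overlap in either direction. EDA2R (ENSG00000131080, chromosome X, 66595637 to 66639298), a receptor of the tumour necrosis factor family, had normalised counts of 182, 185, 219 and 203 in high MYC controls and 277, 246, 284 and 253 with the inhibitor. At medium MYC they were 212, 202, 201 and 222 in controls and 355, 315, 333 and 325 with the inhibitor. The inhibitor libraries were above the controls at both levels, with log2 changes of 0.43 (limma, SE 0.07 and adjusted p = 9.89e-05) and 0.66 (limma, SE 0.07 and adjusted p = 2.98e-07), the latter the largest rise with the inhibitor among the 32 genes.

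FAS (ENSG00000026103, chromosome 10, 88990582 to 89015785), the death receptor that binds FAS ligand, stood at 52.0, 61.8, 85.0 and 64.8 in high MYC controls and 93.6, 72.1, 106 and 88.4 with the inhibitor, which overlapped. At medium MYC it stood at 524, 511, 536 and 547 in controls and 841, 724, 729 and 730.0 with the inhibitor, which did not. Its log2 changes were 0.45 (limma, SE 0.12 and adjusted p = 0.00577) and 0.51 (limma, SE 0.12 and adjusted p = 0.00208). The call at high MYC was lost when only the groups compared entered the fit (limma adjusted p = 0.0761). TNFRSF10B (ENSG00000120889), which encodes the TRAIL receptor DR5, had 1579, 1597, 1586 and 1554 in high MYC controls and 1666, 1721, 1708 and 1685 with the inhibitor. At medium MYC the values were 1669, 1735, 1738 and 1770.1 and 2095, 2182, 2152 and 2053. No inhibitor library overlapped a control of its level, and the log2 changes were 0.10 (limma, SE 0.03 and adjusted p = 0.0116) and 0.30 (limma, SE 0.03 and adjusted p = 9.59e-08).

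Of the other death and survival genes, AEN (ENSG00000181026, chromosome 15, 88621296 to 88632282), which encodes an apoptosis-enhancing nuclease, had 1141, 1185, 1140.1 and 1214 in high MYC controls and 1408, 1374, 1439 and 1448 with the inhibitor. At medium MYC it had 694, 656, 725 and 726 and 798, 939.7, 901 and 880.3. The log2 changes of this gene, whose promoter match is printed above, were 0.28 (limma, SE 0.05 and adjusted p = 9.60e-05) and 0.33 (limma, SE 0.05 and adjusted p = 1.16e-05), without overlap at either level. RPS27L, whose promoter match is also printed, encodes a close copy of ribosomal protein S27. It stood at 569, 538, 555 and 523 in controls and 694, 688, 695 and 654 with the inhibitor at high MYC. RPS27L at medium MYC stood at 692, 734, 649 and 771 in controls and 1009, 918, 918 and 917 with the inhibitor. All inhibitor libraries were above all controls of their level. Its log2 changes were 0.32 (limma adjusted p = 4.88e-05) and 0.40 (limma adjusted p = 2.32e-06); they are uncertain in so far as counting could split reads between RPS27L and RPS27.

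TP53INP1, whose product promotes p53-dependent apoptosis and autophagy, had 770.5, 906, 980.1 and 924 in controls and 1208, 1195, 1187 and 1282 with the inhibitor at high MYC. The medium MYC values of TP53INP1 were 1194, 1182, 1050.2 and 1174 in controls and 1383, 1376, 1372 and 1411 with the inhibitor. It rose at both levels without overlap, with log2 changes of 0.45 (limma adjusted p = 2.85e-06) and 0.27 (limma adjusted p = 8.31e-04). PHLDA3, a competitor of the survival kinase AKT for membrane lipids, had 126, 126, 107 and 113 in controls and 132, 138, 116 and 153 with the inhibitor at high MYC, with overlap. The medium MYC values of PHLDA3 were 208, 200.3, 221 and 198 in controls and 239, 289, 284 and 258 with the inhibitor, without overlap. The rise of PHLDA3 at medium MYC was 0.37 (limma adjusted p = 0.00353) on the log2 scale. At high MYC PHLDA3 had 0.19 (limma adjusted p = 0.13), and it was called there without high MYC inhibitor replicate 3 (limma adjusted p = 0.0423) and after the GC correction (limma adjusted p = 0.0123). TRIAP1, a small mitochondrial protein that restrains apoptosis, rose at medium MYC from 195 ± 12.9 (SD, n = 4) to 233 ± 11.3 (SD, n = 4), with log2 changes of 0.08 (limma adjusted p = 0.375) at high and 0.26 (limma adjusted p = 0.00426) at medium MYC. The genes that rose at medium MYC included both promoters and restrainers of death.

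Of the 4 tested metabolic genes only FDXR, the mitochondrial ferredoxin reductase, rose, against 10.5% (high MYC) and 11.7% (medium MYC) of all tested genes. Its normalised counts were 138, 127, 130.2 and 143 in high MYC controls and 166, 136, 156 and 170.5 with the inhibitor, and 208, 221, 241 and 213 and 257, 288, 259 and 283 at medium MYC. The log2 changes were 0.22 (limma, SE 0.08 and adjusted p = 0.0428) and 0.30 (limma, SE 0.08 and adjusted p = 0.00629), with overlap at high MYC and none at medium MYC. The FDXR call at high MYC was lost without any 1 of 6 of the 8 libraries (high MYC control replicates 1, 2 and 3 or high MYC inhibitor replicates 1, 3 and 4; limma adjusted p = 0.0573 to 0.129), in DESeq2 (adjusted p = 0.107), with no filter (limma adjusted p = 0.067) and with only the groups compared in the fit (limma adjusted p = 0.0992).

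SESN1, a sestrin that senses amino acids and restrains mTORC1, had log2 changes of 0.17 (limma adjusted p = 0.132) and 0.17 (limma adjusted p = 0.152); the call at medium MYC was gained without medium MYC control replicate 2 (limma adjusted p = 0.0296). TIGAR, which lowers fructose-2,6-bisphosphate and thereby glycolysis, had -0.08 (limma adjusted p = 0.495) and -0.09 (limma adjusted p = 0.38). TP53I3, a quinone oxidoreductase, had -0.12 (limma adjusted p = 0.653) and 0.25 (limma adjusted p = 0.336).

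Among the remaining 4 genes, ZMAT3 (ENSG00000172667, chromosome 3, 179017223 to 179072279), an RNA-binding zinc finger protein, had normalised counts of 1649, 1696, 1913 and 1746 in high MYC controls and 2094, 2159.6, 2156 and 2138 with the inhibitor. At medium MYC they were 3073, 3025, 2533 and 3029 and 3545, 3553, 3487 and 3516. The log2 changes were nearly equal, 0.29 (limma, SE 0.05 and adjusted p = 1.41e-04) and 0.28 (limma, SE 0.05 and adjusted p = 1.90e-04), and the groups did not overlap. FBXO22, a substrate receptor of a ubiquitin ligase, stood at 731, 857, 799 and 863 in controls and 962, 956, 932 and 965 with the inhibitor at high MYC. FBXO22 at medium MYC stood at 699, 682, 652 and 677 in controls and 777, 730.1, 729 and 815 with the inhibitor. The groups did not overlap at either level, and FBXO22 rose by 0.23 (limma adjusted p = 0.00106) and 0.17 (limma adjusted p = 0.0128); the call at medium MYC was lost without medium MYC inhibitor replicate 4 (limma adjusted p = 0.0578) and after the GC correction with the replicate number as a block (limma adjusted p = 0.0518).

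CMBL, a hydrolase, rose at medium MYC from 149.7 ± 16.05 (SD, n = 4) to 181 ± 10.5 (SD, n = 4), a log2 change of 0.27 (limma adjusted p = 0.0052). At high MYC it had 0.16 (limma adjusted p = 0.0908), and edgeR called it there (adjusted p = 0.0314), as did limma under quantile normalization (adjusted p = 0.0478) and with only the groups compared in the fit (adjusted p = 0.0305). ANKRA2, an ankyrin-repeat protein, stood at 45.2, 50.5, 60.7 and 53.6 in controls and 48.4, 68.8, 49.7 and 40.5 with the inhibitor at high MYC. ANKRA2 at medium MYC stood at 80.3, 99.3, 93.6 and 83.7 in controls and 120.0, 98.3, 126 and 122 with the inhibitor. The groups overlapped at both levels, and its log2 changes were -0.04 (limma adjusted p = 0.89) at high and 0.38 (limma adjusted p = 0.0551) at medium MYC. The medium MYC change of ANKRA2 was called higher by edgeR (adjusted p = 0.0242) and DESeq2 (adjusted p = 0.0369), under 4 other limma settings, and without medium MYC inhibitor replicate 2 (limma adjusted p = 0.0328).

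The study's title asks how the response depends on the MYC level, so the difference in response (the log2 change at medium MYC minus that at high MYC) was tested for each gene. It passed for 4 of 32 p53 target genes, TNFRSF10B, E2F7, XPC and DDB2, each with the higher value at medium MYC. None passed with the lower value in limma, edgeR or DESeq2, while 2 did at an unadjusted limma p under 0.05. Over all tested genes 5.33% passed with a higher and 3.31% with a lower value at medium MYC. For TNFRSF10B, XPC and DDB2 the rise with the inhibitor was larger at medium MYC, and the E2F7 change was more negative at high MYC.

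The difference was 0.19 (limma, SE 0.04 and adjusted p = 0.00383) for TNFRSF10B and 0.29 (limma, SE 0.07 and adjusted p = 0.0102) for E2F7. Neither gene lost its call under any alternative run or without any library. For XPC it was 0.24 (limma, SE 0.07 and adjusted p = 0.0253), and the call was lost in DESeq2 (adjusted p = 0.059) and without any 1 of 4 of the 16 libraries (high MYC control replicate 1, high MYC inhibitor replicates 1 and 2 or medium MYC inhibitor replicate 3; limma adjusted p = 0.0532 to 0.0622). For DDB2 it was 0.26 (limma, SE 0.08 and adjusted p = 0.0327), and the call was lost without any 1 of 10 of the 16 libraries (high MYC control replicates 2 and 4, high MYC inhibitor replicates 2 and 4, medium MYC control replicates 1, 2 and 4 or medium MYC inhibitor replicates 1, 2 and 4; limma adjusted p = 0.0549 to 0.0776), with no filter (limma adjusted p = 0.0621), with no mean trend (limma adjusted p = 0.0714) and with the replicate number as a block (limma adjusted p = 0.0968). Without high MYC inhibitor replicate 2 the count fell from 4 to 2, and with the GC correction it was 7.

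The other 28 genes did not pass, which does not show that they responded alike; 9 of the 32 had an unadjusted limma p under 0.05, as did 2924 of all 13765 tested genes. CDKN1A had a difference of 0.16 (limma adjusted p = 0.14) and RRM2B of 0.24 (limma adjusted p = 0.105). Both were called after the GC correction (limma adjusted p = 0.023 and 0.00562), as was TP53INP1, with its larger rise at high MYC (0.0398, against 0.187 without the correction). CDKN1A was also called without medium MYC control replicate 3 (limma adjusted p = 0.0396), and RRM2B without high MYC control replicate 1 (limma adjusted p = 0.0473). Among the feedback genes the difference with the smallest p-value was that of MDM4, -0.10 (limma adjusted p = 0.119), and MDM2 had 0.06 (limma adjusted p = 0.58).

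**Figure D3:**
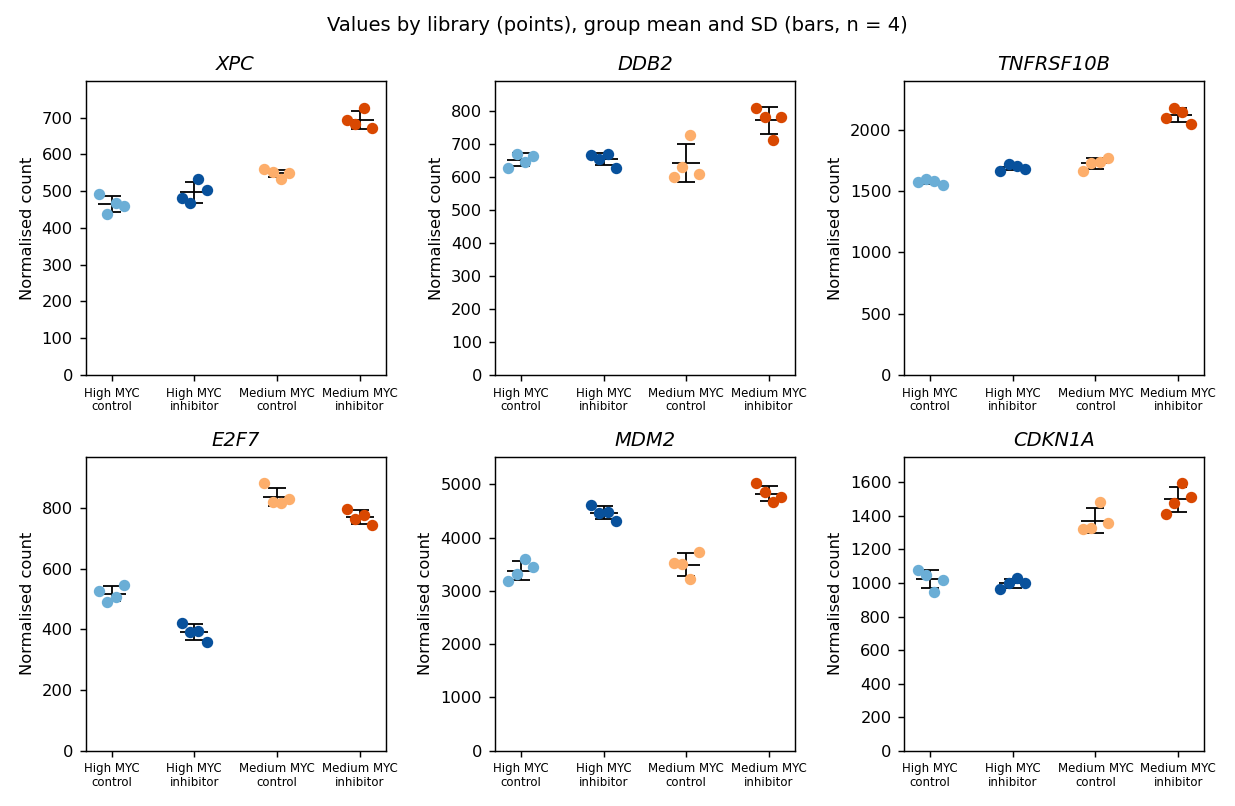
Normalised counts of XPC, DDB2, TNFRSF10B, E2F7, MDM2 and CDKN1A in each library (points, 4 per group), with the group mean and SD (bars); the vertical axes start at 0. XPC and TNFRSF10B are highest in medium MYC inhibitor libraries, E2F7 is lowest in high MYC inhibitor libraries, and MDM2 is higher with the inhibitor at both MYC levels (log2 changes of 0.40 and 0.47).

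The second question was how the p53 target genes stood at the 2 MYC levels. Among controls 18 of 32 were higher and 7 lower at medium MYC, while 38.9% of all tested genes were called higher and 37.3% lower. Calls in either direction were thus common over all genes. With the inhibitor 21 were higher and 8 lower, against 39.7% and 37.8% of all genes; the median log2 change was 0.19 among controls and 0.29 with the inhibitor, and 0.02 in both for all genes. These 2 comparisons share no library with each other, but each shares a group with both comparisons of the inhibitor. The direction was the same in both for the 18 genes called higher and the 7 called lower among controls.

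At least 2-fold differences among controls were found in 4 genes, FAS, TP53I3, SESN1 and CMBL. The share of all tested genes with such a difference was not computed, so this count is not a trait of the p53 target genes. The FAS values printed above were higher at medium MYC in every library, with a log2 change of 3.01 (limma, SE 0.12 and adjusted p = 5.89e-16) among controls, 8.05-fold on the scale of the normalised count plus 1, and 3.07 (limma, SE 0.12 and adjusted p = 3.84e-16) with the inhibitor. TP53I3 (ENSG00000115129, chromosome 2, 24077433 to 24085861) had normalised counts of 18.1, 30.3, 26.5 and 23.5 in high MYC controls and 56.3, 80.5, 90.1 and 72.2 in medium MYC controls. With the inhibitor they were 18.3, 24.4, 24.4 and 21.8 at high MYC and 92.0, 72.5, 96.1 and 91.8 at medium MYC. All medium MYC libraries were above all high MYC libraries, with log2 changes of 1.57 (limma, SE 0.17 and adjusted p = 4.44e-08) and 1.94 (limma, SE 0.17 and adjusted p = 1.41e-09).

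SESN1 (ENSG00000080546, chromosome 6, 108986437 to 109094819) was lower at medium MYC. Its normalised counts were 269.6, 265, 247 and 278 in high MYC controls and 111, 131, 102 and 105 in medium MYC controls, and 279.6, 285, 307 and 325 and 137, 122, 119 and 123 with the inhibitor. The log2 changes were -1.24 (limma, SE 0.08 and adjusted p = 9.08e-12) and -1.25 (limma, SE 0.08 and adjusted p = 7.82e-12). CMBL (ENSG00000164237, chromosome 5, 10275875 to 10308026) had 413, 418, 405 and 410.2 in high MYC controls and 172, 149.8, 136 and 141 in medium MYC controls, with a log2 change of -1.46 (limma, SE 0.07 and adjusted p = 2.66e-14). With the inhibitor it had 462, 428, 463 and 494 and 186, 174, 170.2 and 193, with -1.35 (limma, SE 0.07 and adjusted p = 1.03e-13). Neither gene overlapped between MYC levels.

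By role, 6 of the 7 genes listed under arrest were higher at medium MYC in both comparisons, all but PLK3. Over all tested genes 38.9% were called higher among controls and 39.7% with the inhibitor. Roles were assigned by list and not measured here, that of SERTAD1 included. CDKN1A was higher by 0.42 (limma adjusted p = 2.65e-08) among controls and 0.59 (limma adjusted p = 1.25e-10) with the inhibitor, and E2F7 by 0.69 (limma adjusted p = 2.69e-11) and 0.98 (limma adjusted p = 5.82e-14). GADD45A, BTG2, PLK2 and SERTAD1 had 0.33, 0.34, 0.75 and 0.90 among controls. PLK3 had -0.15 (limma adjusted p = 0.224) and -0.23 (limma adjusted p = 0.0679); quantile normalization called it lower in both (limma adjusted p = 0.0206 and 0.00261), and dropping the mean trend did so with the inhibitor (limma adjusted p = 0.0389).

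Of the feedback genes MDM4 and CCNG1 were lower at medium MYC among controls, with log2 changes of -0.19 (limma adjusted p = 1.57e-06) and -0.27 (limma adjusted p = 2.12e-06), and PPM1D had -0.06 (limma adjusted p = 0.355). MDM2 had 0.05 (limma adjusted p = 0.297); it was called higher without medium MYC control replicate 3 (limma adjusted p = 0.0425) and after the GC correction (limma adjusted p = 0.0126). With the inhibitor MDM2 was higher at medium MYC by 0.11 (limma adjusted p = 0.0174), a call that was lost without any 1 of 2 of the 8 libraries (high MYC inhibitor replicate 4 or medium MYC inhibitor replicate 1; limma adjusted p = 0.0597 to 0.0623). PPM1D had 0.11 (limma adjusted p = 0.097) with the inhibitor and was called higher without medium MYC inhibitor replicate 1 (limma adjusted p = 0.0101) and after the GC correction with the replicate number as a block (limma adjusted p = 0.0486).

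Of the repair genes XPC and RRM2B were higher at medium MYC among controls, by 0.24 (limma adjusted p = 1.16e-04) and 0.15 (limma adjusted p = 0.0379). The RRM2B call was lost without any 1 of 5 of the 8 libraries (high MYC control replicates 1 and 2 or medium MYC control replicates 1, 2 and 4; limma adjusted p = 0.055 to 0.144), and under 4 other settings (limma adjusted p from 0.0512 with equal library totals to 0.0795 with only the groups compared in the fit). DDB2, POLH and ASCC3 had -0.03 (limma adjusted p = 0.65), 0.10 (limma adjusted p = 0.0736) and -0.07 (limma adjusted p = 0.129); POLH was called higher without medium MYC control replicate 2 (limma adjusted p = 0.0304), under quantile normalization (limma adjusted p = 0.0309) and after the GC correction (limma adjusted p = 0.0147). With the inhibitor XPC, RRM2B and DDB2 were higher, by 0.48 (limma adjusted p = 6.40e-09), 0.39 (limma adjusted p = 8.69e-06) and 0.23 (limma adjusted p = 4.58e-04). ASCC3 was lower, with -0.11 (limma adjusted p = 0.0214), a call that was lost without any 1 of 2 of the 8 libraries (high MYC inhibitor replicate 2 or medium MYC inhibitor replicate 2; limma adjusted p = 0.073 to 0.111), with the replicate number as a block (limma adjusted p = 0.0503) and after the GC correction (limma adjusted p = 0.0964).

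In the death and survival group, PHLDA3, RPS27L, TP53INP1 and TNFRSF10B were higher at medium MYC among controls, as was FAS, with log2 changes of 0.81, 0.38, 0.36 and 0.13 for the first 4. AEN and TRIAP1 were lower, with -0.74 (limma adjusted p = 2.34e-12) and -0.50 (limma adjusted p = 3.97e-07), so these 2 genes rose with the inhibitor at medium MYC from a lower control level. EDA2R had 0.09 (limma adjusted p = 0.257) among controls and was higher with the inhibitor, by 0.33 (limma adjusted p = 2.74e-04). FDXR and TIGAR were higher among controls by 0.71 and 0.33, ZMAT3 and ANKRA2 by 0.73 and 0.76, and FBXO22 had -0.26 and was lower.

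**Figure D4:**
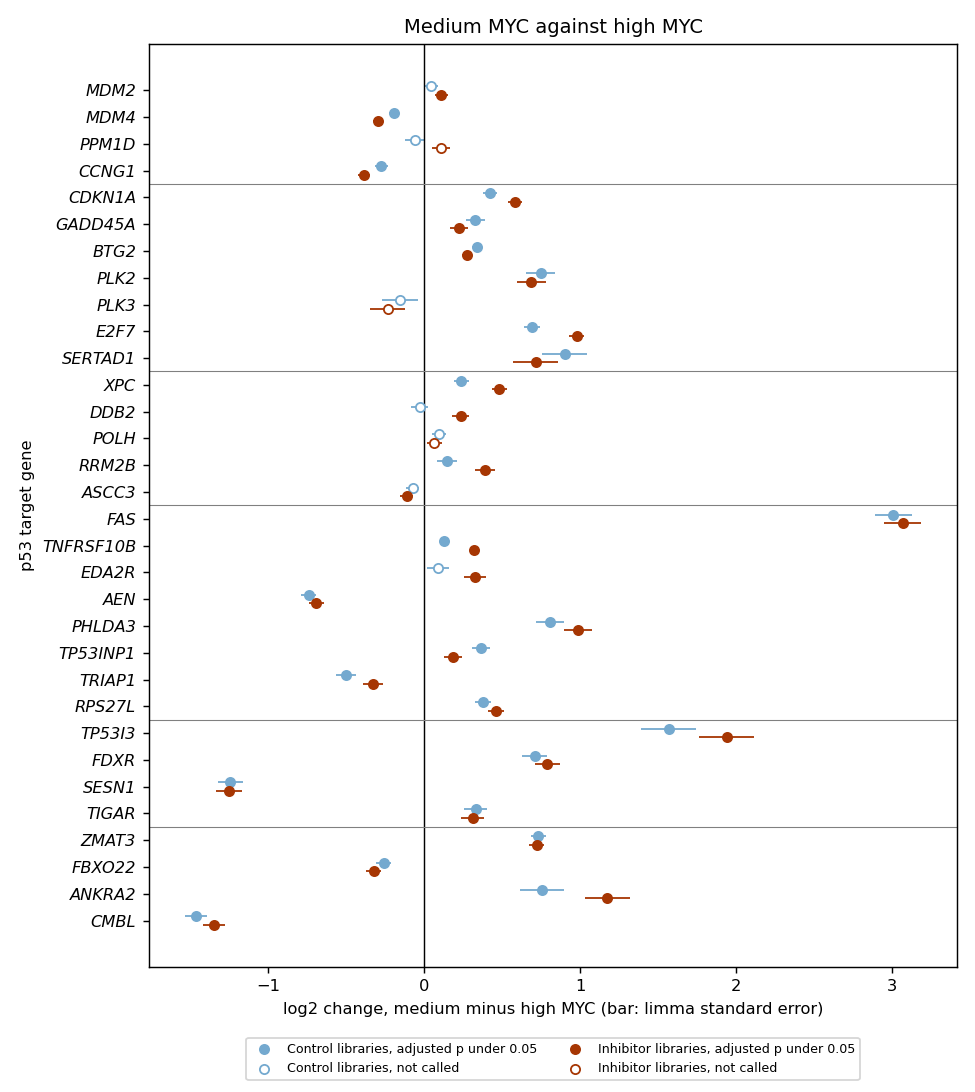
Points give the log2 change from high to medium MYC for each of the 32 tested p53 target genes among control libraries (light blue) and among inhibitor libraries (brown), with bars of 1 limma standard error; filled points have an adjusted p under 0.05. Values run from -1.46 (CMBL) to 3.01 (FAS) among controls and from -1.35 (CMBL) to 3.07 (FAS) with the inhibitor.

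Of 24 tested regulators and partners of p53, 3 rose and 2 fell at high MYC, and 4 rose and none fell at medium MYC. Over all tested genes 10.5% rose and 16.3% fell at high MYC, and 11.7% rose and 14.6% fell at medium MYC. The shares of regulators that rose were somewhat above these and the shares that fell were below, each from few genes. TP63, a p53 family member, had normalised counts of 91.1, 77.5, 115 and 78.2 in high MYC controls and 167, 149, 159.7 and 154 with the inhibitor, without overlap, a log2 change of 0.81 (limma adjusted p = 2.72e-05). At medium MYC its counts were 92.8, 101, 72.6 and 87.0 and 154, 166, 137 and 160.3, with 0.80 (limma adjusted p = 2.60e-05). RPL5 and RPL23, ribosomal proteins that can bind and inhibit MDM2, rose by 0.11 (limma adjusted p = 6.99e-04) and 0.09 (limma adjusted p = 0.0232) at high MYC and by 0.20 (limma adjusted p = 4.45e-07) and 0.18 (limma adjusted p = 7.53e-05) at medium MYC, and RPL11 by 0.17 (limma adjusted p = 0.00281) at medium MYC. TP53BP2, a p53 partner, and EP300, an acetyltransferase, had -0.18 (limma adjusted p = 0.0085) and -0.09 (limma adjusted p = 0.0329) at high MYC and fell. The EP300 call was lost in edgeR (adjusted p = 0.0596) and DESeq2 (adjusted p = 0.0853). Leaving out high MYC control replicates 1 or 4 or high MYC inhibitor replicates 1 or 4 also lost it (limma adjusted p = 0.0673 to 0.0954). So did equal library totals, quantile normalization, no filter, no mean trend and the GC correction with or without a replicate block (limma adjusted p = 0.0587 to 0.263). The RPL23 call at high MYC was lost without high MYC control replicates 3 or 4 or high MYC inhibitor replicate 3 (limma adjusted p = 0.062 to 0.0952). It was also lost with no filter (limma adjusted p = 0.0524) and no mean trend (limma adjusted p = 0.0693). The RPL5 call at high MYC was lost after the GC correction (limma adjusted p = 0.262). Under quantile normalization 5 of the 24 rose and 1 fell at high MYC. RPL11 and EP300 were named after their values were seen, to complete these counts. TP53BP2 also differed in response, by 0.27 (limma adjusted p = 0.0158), and DESeq2 called neither its fall at high MYC (adjusted p = 0.06) nor that difference (adjusted p = 0.0546).

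Between MYC levels 8 of the 24 were higher and 8 lower among controls, near or below the 38.9% and 37.3% of all genes. TP73, another family member, did not exceed 3 reads in the high MYC control libraries and reached 145 ± 11.6 (SD, n = 4) normalised counts in medium MYC controls. HIPK2, a kinase that phosphorylates p53, rose from 24.1 ± 7.82 (SD, n = 4) to 308 ± 26.1 (SD, n = 4), a log2 change of 3.68 (limma adjusted p = 1.86e-14). RPL5, with a log2 change of -1.19 (limma adjusted p = 2.33e-21), was the gene of the list with the largest fall.

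A wider list of 59 other reported p53 targets, of which 50 were tested, was called in both directions. At high MYC 11 rose and 12 fell, where 10.5% and 16.3% of all genes did. At medium MYC 12 rose and 9 fell, where 11.7% and 14.6% of all genes did. The median log2 changes were -0.01 and 0.04. The death genes BBC3 (PUMA) and PMAIP1 (NOXA) rose at both levels: BBC3 by 0.45 (limma adjusted p = 0.00294) and 0.54 (limma adjusted p = 5.63e-04), and PMAIP1 by 0.45 (limma adjusted p = 4.44e-04) and 0.57 (limma adjusted p = 3.50e-05). BAX, a further death effector of the same family, had 0.01 (limma adjusted p = 0.895) and -0.03 (limma adjusted p = 0.613). SFN, the arrest protein 14-3-3 sigma, fell from 68.7 ± 7.14 (SD, n = 4) to 30.7 ± 4.17 (SD, n = 4) at high MYC and from 83.5 ± 8.81 (SD, n = 4) to 37.5 ± 14.1 (SD, n = 4) at medium MYC, with log2 changes of -1.14 (limma adjusted p = 6.14e-05) and -1.19 (limma adjusted p = 3.31e-05). SESN2, which also answers to the integrated stress response, rose at medium MYC by 0.67 (limma adjusted p = 4.20e-07) and had 0.06 (limma adjusted p = 0.611) at high MYC, a difference in response of 0.61 (limma adjusted p = 4.09e-04). CD82, a tetraspanin, fell at high MYC by 0.84 on the log2 scale (limma adjusted p = 1.54e-09). KCNN4, a potassium channel, fell at medium MYC by 0.66 on the log2 scale (limma adjusted p = 5.94e-04). BBC3 and BAX were picked from the list for their known role in death, after their values were seen. Among controls 25 of the 50 were higher and 16 lower at medium MYC (38.9% and 37.3% of all genes), led by CD82 with 3.15 (limma adjusted p = 4.58e-21), DRAM1, a gene of autophagy, with 2.60 (limma adjusted p = 5.88e-14) and ATF3, a stress transcription factor, with 1.83 (limma adjusted p = 9.09e-11).

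Of 20 cell cycle genes that p53 is known to lower through p21, 16 fell at high MYC, where 16.3% of all genes did, with a median log2 change of -0.19. At medium MYC 5 fell, where 14.6% of all genes did, with a median of -0.02; without medium MYC control replicate 3, without medium MYC inhibitor replicate 4 or under quantile normalization 3 fell. PLK1, a mitotic kinase, fell most at high MYC, from 1501 ± 72.1 (SD, n = 4) to 1163 ± 21.4 (SD, n = 4), a log2 change of -0.37 (limma adjusted p = 1.07e-06). AURKB, another mitotic kinase, and FOXM1, a transcription factor of mitotic genes, fell there by 0.32 and 0.28 on the log2 scale (limma adjusted p = 7.77e-04 and 4.45e-06). The difference in response passed for 9 of the 20, each with the higher value at medium MYC, as for 5.33% of all genes. At medium MYC MYBL2, AURKB and MCM5 changed most, by -0.25 (limma adjusted p = 2.01e-05), -0.21 (limma adjusted p = 0.0163) and -0.20 (limma adjusted p = 0.00121). The AURKB call there was lost without medium MYC control replicate 3 (limma adjusted p = 0.0681) or medium MYC inhibitor replicate 4 (limma adjusted p = 0.0593). Among controls 17 of the 20 were higher and 1 lower at medium MYC (38.9% and 37.3% of all genes). Of the 7 genes listed under arrest, 6 were higher there too. With the inhibitor CDKN1A, which encodes p21, was not called at high MYC. At medium MYC it was called higher, a call that several single omissions lost. Whether p21 had a part in the falls of the cell cycle genes was not tested.

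**Figure D5:**
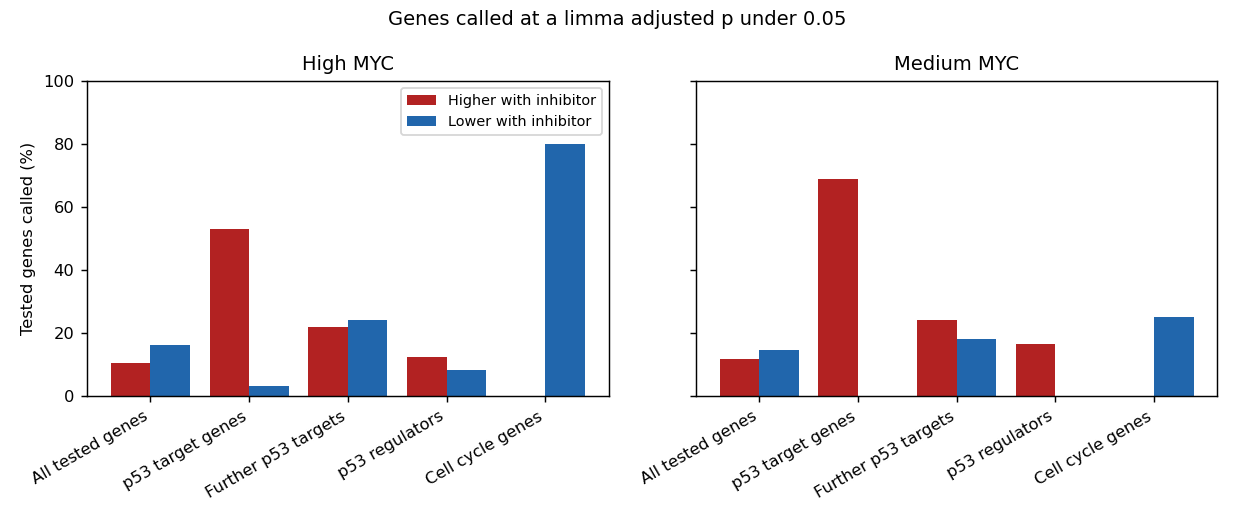
Bars give the percent of tested genes called higher (red) or lower (blue) with the inhibitor at high MYC (left) and medium MYC (right), for all 13765 tested genes, the 32 p53 target genes, 50 further p53 targets, 24 p53 regulators and 20 cell cycle genes. The p53 target genes are mostly called higher at both levels (17 and 22 of 32), the further targets go both ways, and the cell cycle genes are called lower, 16 of 20 at high and 5 of 20 at medium MYC.

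Exons of 13 of the 33 genes overlap those of another gene in GENCODE release 29, over 0.113% to 45.6% of their exon length, most in TIGAR (45.6%) and XPC (39.0%). The processing notes do not say whether counting used the strand, so reads of overlapping genes, MDM2, CDKN1A, FAS, SESN1, TP53I3, FBXO22 and PHLDA3 among them, may be shared with a neighbour.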

How the data were processed

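Total RNA was extracted with a miRNeasy kit, made into cDNA libraries with a Nugen kit and sequenced on an Illumina HiSeq, per the labels' protocols. The authors deposited a table of signal values, that is gene counts divided by 1 size factor per library. STAR 2.5.2a, RSEM 1.2.31, DESeq2 1.16.1 and GRCh38 are named per the submitters' processing notes, without role or order; annotation release and strand use are not given in the sources used here. Whole reads could be recovered for 100% of values.

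Groups came from the labels. limma 3.58.1 (R 4.3.3, with a mean trend) was fitted to log2(value + 1) for the 13765 genes whose mean reached 10, with all 16 libraries in the fit. Calls needed a 2-sided Benjamini-Hochberg adjusted p under 0.05 over all tested genes. Fold changes on this scale understate changes of low genes. Count tests of the recovered reads (edgeR 4.0.16, DESeq2 1.42.0), other scalings, pseudocounts, filters and samples, a GC correction, a replicate block and leaving out each library were alternatives. Over all genes edgeR called 1587 higher and 2116 lower at high MYC, and 1857 and 2001 at medium MYC. The fit was tested on simulated data. Replicates differed beyond counting noise (chi-square per degree of freedom 1.72 to 10.7), so none was counted as a duplicate.

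The 33 genes and the other lists were chosen with earlier results of these data known. The text names all 33 genes by role. Values in every library are given for called genes whose mean reached 50 and that had the largest absolute log2 change (up to 3 a role and comparison). From each other list it names up to 3 called genes a comparison by the same measure, with exceptions stated; some genes are not reported here. Positions come from GENCODE release 29, matched by identifier.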

Additional observations from a re-analysis of the deposited data

Results flagged for a closer look

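In 10 of 128 groups of 4 libraries, over the 32 tested genes, 1 library lay far from the other 3, with a gap that was too large a share of the group's range by Dixon's 95% criterion. Chance flags about 1 in 20 groups. GADD45A stood at 210.8 in high MYC control replicate 3 and at 264.2 in medium MYC control replicate 4, TP53INP1 at 1050.2 in medium MYC control replicate 3 and TRIAP1 at 175.5 in medium MYC control replicate 2. ASCC3 stood at 1026 in high MYC control replicate 2 and ZMAT3 at 2533 in medium MYC control replicate 3. With the inhibitor, RPS27L stood at 653.8 in high MYC replicate 4 and at 1009 in medium MYC replicate 1, FAS at 841.2 in medium MYC replicate 1, and SERTAD1 at 88.8 in medium MYC replicate 3. The cause was not tested.

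The inhibitor's effect differed between the MYC levels in the limma test for 4 genes. The difference (medium minus high MYC, log2) was 0.29 for E2F7, 0.24 for XPC, 0.26 for DDB2 and 0.19 for TNFRSF10B.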

How the results depend on the processing

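No comparison of a p53 target gene reversed in a run where it was called there or in the main fit. Reversals of comparisons called in neither were not counted. Of 160 comparisons of p53 target genes 98 were called. Of these, 87 were called in the same direction under every alternative run for the gene and without every library, and 11 were lost under some. PLK2, PLK3, SERTAD1, TP53I3 and ANKRA2 did not reach the alternative filter at a mean of 100, so they were not tested under it. Another 15 were gained under some. Over the alternative settings, the number of p53 target genes called ranged from 16 to 20 at high MYC (18 as reported) and 21 to 24 at medium MYC (22). Between MYC levels it ranged from 21 to 27 among controls (25) and 25 to 30 with the inhibitor (29). Leaving out each library gave 16 to 18 at high MYC and 20 to 22 at medium MYC. Between MYC levels it gave 24 to 26 among controls and 28 to 29 with the inhibitor. For the difference in response 4 were called; the GC correction gave 7, and leaving out each library gave 2 to 5. The cause was not tested.

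The replicate numbers are not said to pair libraries, and their residual correlations were not all above 0.1: -0.15 to -0.01 for inhibitor against control at high MYC, -0.08 to 0.05 at medium MYC, and between MYC levels -0.10 to 0.24 among controls (the highest from replicate 4) and -0.08 to 0.05 with the inhibitor. With the replicate number as a block 18 genes were called at high MYC, 22 at medium MYC, 25 and 28 between MYC levels, and 3 for the difference in response. The block between MYC levels was added after seeing the data.

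Counting error limits the lowest genes, such as SPATA18. The comparisons rest on 1 cell line and 1 inhibitor dose and time.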

Other observations

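Mean normalised counts per kilobase of annotated exon gave the p53 target genes a level in each group (SD, n = 4). BTG2 was highest in all 4 groups, at 851 ± 24.6 in high MYC controls and 952 ± 13.8 with the inhibitor, and at 1075 ± 25.9 in medium MYC controls and 1152 ± 20.6 with the inhibitor. CCNG1 came next in both high MYC groups, at 392 ± 20.4 in controls and 480.3 ± 10.4 with the inhibitor. In both medium MYC groups it was CDKN1A, at 449.95 ± 24.4 in controls and 491 ± 24.6 with the inhibitor. TP53I3 was the lowest tested gene in both high MYC groups, at 10.6 ± 2.24 and 9.62 ± 1.26. At medium MYC SESN1 and PLK2 were lowest in controls, at 21.9 ± 2.57 and 22.0 ± 1.08, closer than their spread, and PLK3 was lowest with the inhibitor, at 20.1 ± 1.12. The exon lengths are unions over all annotated transcripts, so these levels are approximate where a gene has long transcripts that the cells may not use.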
